A study of Mus musculus with 7 samples.

Results

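The genes of autophagy and of the lysosome were compared between C3H10T1/2 cultures after 3 days of osteoblast induction and untreated ones. C3H10T1/2 is a multipotent mesenchymal cell line of mouse from which bone, fat and cartilage cells can be raised in culture. The 34 genes were given as a fixed list of symbols, chosen with earlier results of these data known. All 34 were found among the 54532 features of the count table. All 34 passed the filter on low counts that left 15441 genes to test. For the OB group, 4 libraries came from cultures given dexamethasone (a synthetic glucocorticoid), 10 mM β-glycerophosphate and 50 µM L-ascorbic acid over 3 days. For the control group, 3 libraries came from untreated cells of the same line, and the labels do not say how long those were kept. All are cultures of 1 cell line, described by the submitters as biological replicates.

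Autophagy wraps parts of the cytoplasm in a double membrane, the autophagosome, and delivers them to the lysosome. The ULK kinases and a Beclin-containing lipid kinase complex start the membrane, ATG enzymes attach LC3 and GABARAP proteins to it, and receptors such as p62 tie cargo to these proteins. The lysosome, acidified by a proton pump (the V-ATPase), then breaks the cargo down, and transcription factors of the MiT/TFE family (TFEB, TFE3 and MITF) are known to switch on many lysosomal and autophagy genes together. In osteoblasts autophagy is known to contribute to mineralisation, and glucocorticoids are known to act on it.

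The libraries held between 21213328 and 46530017 counts on genes. Levels are given as CPM, the usual scaling of counts by the library total (here after TMM), on which 3 counts amount to 0.0645 to 0.141. Which column is which sample, and so each library's group, was read from the input names listed in the table's own counting command. Fkbp5 and Tsc22d3, known glucocorticoid-induced genes, were higher in every OB library, Fkbp5 at 358 to 444 CPM in OB and 14.5 to 49.3 CPM in control, and Tsc22d3 at 403 to 592 CPM in OB and 29.8 to 46.7 CPM in control. Summed over 10 mesenchymal marker genes the level was 13781 to 18188 CPM in OB and 17776 to 21794 CPM in control. Of these 10 genes 7 had a log2 fold change above 0 (median 0.09), and 1 passed as higher and 0 as lower (all genes 4.32% and 3.72%). Of 5 osteoblast markers 4 were too low to test, with 11 counts over the OB and 5 over the control libraries for Alpl, 15 and 29 for Sp7, 6 and 6 for Bglap, and 31 and 2 for Ibsp, which passed as higher by DESeq2. Runx2 was lower in every OB library but did not pass (log2 fold change -0.34 ± 0.13, adjusted p = 0.135), and OB is used here as the name of the medium. Control 3 stood apart from control 1 and 2 on the first principal component of log2 CPM (96.9 against 23.0 and 25.3). The submitters' sample descriptions begin with C1 for OB 1 and control 1, with C2 for OB 2 and control 2, and with no C number for OB 3, OB 4 and control 3. These are called label sets below, and the labels do not say what they mean.

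Of the lysosomal genes 5 of 7 were higher in OB, with 4 genes of the LC3 and conjugation systems. The main test was edgeR's quasi-likelihood test on the groups alone, with no pairing of libraries and with p adjusted over all genes tested after Benjamini and Hochberg. At adjusted p under 0.05, 9 of the 34 genes passed and were higher in OB, against 4.32% of all genes tested. None passed as lower in OB, against 3.72% of all genes, with 0 also lower at an unadjusted p under 0.05 and 0 by DESeq2 or limma-voom. The 9 were Lamp1, Lamp2, Mcoln1, Hexa and Atp6v0d1 of the lysosome, Map1lc3b and Gabarapl1 of the LC3 and GABARAP family, and Atg4a and Atg12 of the conjugation system. The log2 fold change was above 0 for 28 of the 34, against 49.6% of all genes. Its median was 0.22 over the 34 genes and -0.00 over all genes tested. Every OB library lay above every control library for 14 of the 34, against 13.2% of all genes, and every OB library lay below every control library for 0 of them, against 12.3%. Because the 34 genes were chosen with earlier results of these data known, these shares describe them and are no independent support. In these cultures a change in how many cells express a gene and a change in the RNA per cell cannot be told apart.

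The number that passed depended on which libraries were used. Of the 34 genes, 7 passed as higher without control 1 (all genes 3.03%), 2 without control 2 (1.2%) and 5 without control 3 (3.52%). Leaving out OB 1 gave 3 (1.43%), OB 2 gave 3 (2.4%), OB 3 gave 5 (2.48%) and OB 4 gave 5 (2.18%). A block for the label set gave 14 (9.28%), with Becn1, Wipi1, Atg7, Mitf and Gaa added to the 9 (adjusted p = 0.0459, 0.00417, 0.0190, 0.0105 and 0.00289). A block for the replicate number gave 10 (5.38%), with Lamp1 and Atg4a lost and Wipi1, Mitf and Gaa added. In that fit OB 4 is alone in its block, so it adds nothing to the estimated difference between OB and control. Among the C1 and C2 libraries, 2 against 2, 13 of 34 were higher (all genes 6.27%) and 0 lower. Among the libraries with no C number, OB 3 and OB 4 against control 3, 17 were higher (all genes 18.9%) and 2 were lower (all genes 21.2%). In that set the lone control was assumed to vary like the OB pair, so its calls restate where control 3 lies. Below, its calls enter only the counts in the closing section on processing, and its log2 fold changes are given as sizes.

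**Figure D1:**
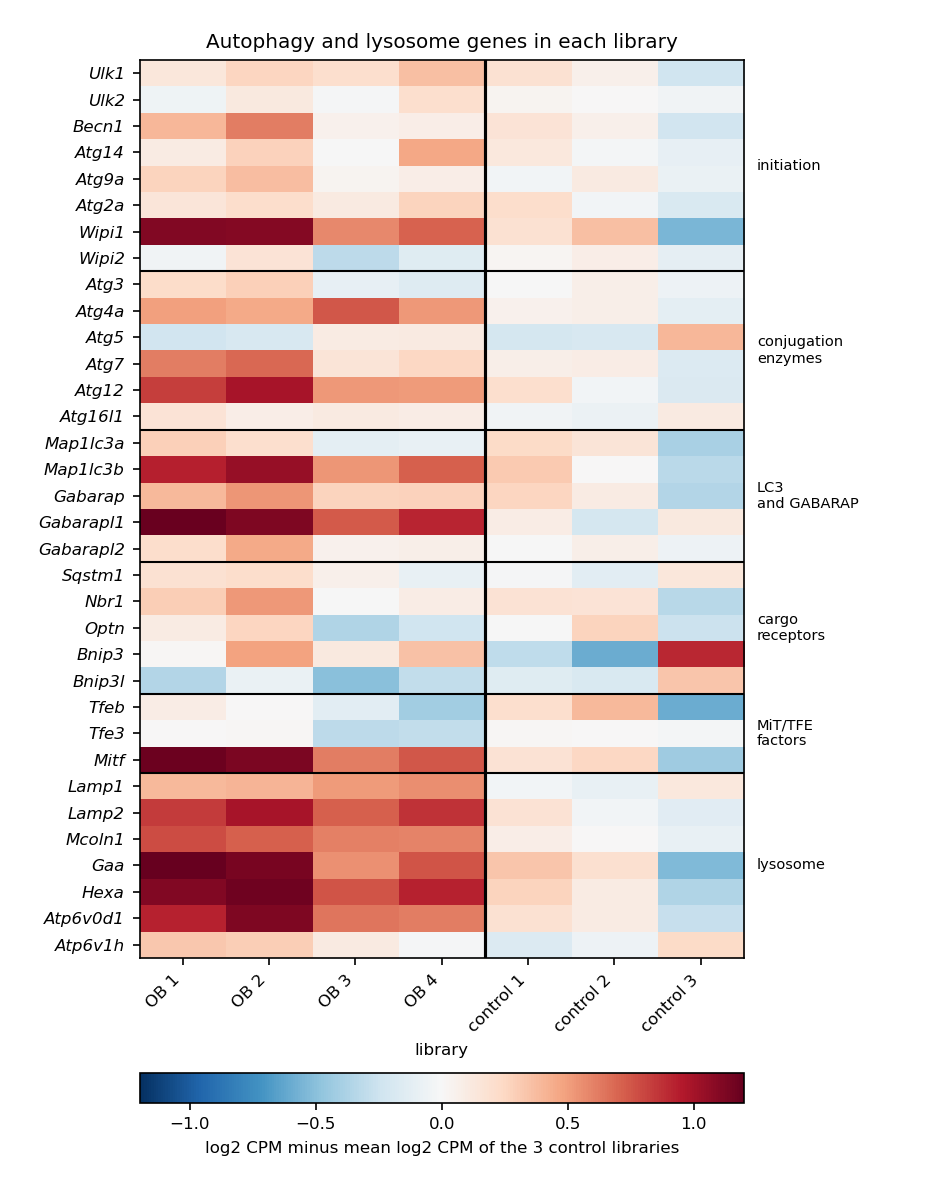
Level of each of the 34 genes in each library, as log2 CPM minus the mean log2 CPM of the 3 control libraries (colour scale), with the OB libraries left of the control libraries and the genes grouped by role. The lysosome rows other than Atp6v1h lie above 0 in all 4 OB libraries, and Wipi1 has the strongest colour of the initiation rows.

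Of the MiT/TFE factor genes 0 of 3 passed the test (all genes 4.32% higher and 3.72% lower). Mitf, best known for its role in pigment cells and osteoclasts, had the lowest p of the group. It stood at 10.3, 10.0, 7.0 and 7.65 CPM in OB 1 to 4 and at 5.15, 5.44 and 3.41 CPM in control 1 to 3, so the groups did not overlap. Its log2 fold change was 0.90 ± 0.24 (SE), which did not pass (adjusted p = 0.0605). The replicate number as a block brought it past the threshold (adjusted p = 0.0375), as did limma-voom (0.0388), DESeq2 (0.00502) and the C1 and C2 libraries alone (0.0305). Mitf did not pass by edgeR with no filter on low counts (0.0786), nor with any 1 library left out (0.0834 to 0.152). Tfeb and Tfe3 had log2 fold changes of -0.16 ± 0.24 and -0.14 ± 0.11 (adjusted p = 0.724 and 0.486), and their OB libraries lay among or below the control libraries. Tfeb ranged from 13.5 to 19.2 CPM in OB and from 11.9 to 23.7 CPM in control, where control 3 was the lowest library of all.

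Per kilobase of exon (FPKM, CPM divided by exon length in kilobases), Mitf was the least abundant of the 34 genes in both groups, at an FPKM of 1.41 in OB and 0.753 in control. Tfe3 stood at 6.41 and 7.06, and Tfeb at 2.97 and 3.32 on that scale. Of the summed level of the 3 factor genes per length, Mitf made up 13.0 ± 0.977% in OB (SD, n = 4) and 6.70 ± 0.840% in control (SD, n = 3). The log2 ratio of Mitf to Tfeb was higher in OB by 1.03 and that of Mitf to Tfe3 by 1.06, with every OB library above every control library. An exact two-sided permutation test over libraries gave p = 0.0571 for each, the smallest that 4 libraries against 3 allow, and p = 0.0667 after adjustment over the 7 ratios computed between these genes. Those 7 pairs were picked after the values were seen, so these p-values, here and below, are no independent test of a difference.

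The genes that start the autophagosome passed in 0 of 8 cases (all genes 4.32% higher and 3.72% lower). Their log2 fold changes ran from -0.08 to 0.84 with a median of 0.21. The highest was that of Wipi1, which binds the lipid of the forming membrane and is a known TFEB target. Wipi1 stood at 209, 208, 145 and 158 CPM in OB 1 to 4 and at 109.9, 125 and 66.2 CPM in control 1 to 3. The groups did not overlap, but control 3 lay far below the other control libraries, and the log2 fold change of 0.84 ± 0.24 did not pass (adjusted p = 0.0691). It did pass with the replicate number as a block (adjusted p = 0.0135), by DESeq2 (0.0139), with no filter on low counts (0.0489) and among the C1 and C2 libraries (0.0120). Wipi1 did not pass by limma-voom (0.0537), nor by edgeR with any 1 library left out (0.0880 to 0.165).

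The kinase genes Ulk1 and Ulk2 had log2 fold changes of 0.23 ± 0.12 and 0.07 ± 0.10. Those of Becn1 (Beclin 1) and Atg14, both of the lipid kinase complex, were 0.29 ± 0.17 and 0.22 ± 0.15. Atg9a, which encodes a lipid scramblase carried on vesicles, and Atg2a, a lipid transfer protein gene, had 0.19 ± 0.12 and 0.17 ± 0.11, and Wipi2, which recruits the conjugation machinery, -0.08 ± 0.13. Adjusted p for these 7 lay between 0.279 and 0.749, with Becn1 past the threshold only under the label-set block among the fits used here, and in each the OB and control libraries overlapped. Of the Becn1 exon bases 43.9% overlap other genes, mostly Cntd1 on the opposite strand, and of those of Atg9a 32.6%, mostly Gm29253 on the same strand.

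Among the conjugation genes 2 of 6 passed as higher (all genes 4.32%). Atg12 encodes a ubiquitin-like protein that is joined to ATG5 to form the ligase of LC3. Its level was 83.5, 93.2, 67.3 and 66.8 CPM in OB 1 to 4 and 54.1, 46.0 and 41.7 CPM in control 1 to 3. Atg4a encodes a protease that trims LC3 and GABARAP proteins before and after conjugation. It stood at 22.2, 21.5, 26.3 and 22.5 CPM in OB and at 16.3, 16.5 and 14.5 CPM in control. Neither gene overlapped between the groups.

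The log2 fold change was 0.72 ± 0.16 for Atg12 (adjusted p = 0.0334) and 0.55 ± 0.13 for Atg4a (adjusted p = 0.0400). Within the C1 and C2 libraries these were 0.82 and 0.42, and in the libraries with no C number 0.67 and 0.74. The call of Atg12 ended without any library other than control 1 (adjusted p up to 0.116), and that of Atg4a without any 1 of the 7 (0.0635 to 0.120), under the replicate block (0.0939), with no filter (0.0840) and among C1 and C2 libraries (0.0816). Of the 50-base words in Atg4a transcripts 51.2% recur in the pseudogene Atg4a-ps, and multi-mapping fragments were left out of the counts.

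Atg7, the activating enzyme gene, stood at 39.8 to 57.6 CPM in OB and 31.9 to 37.9 CPM in control, with no overlap, and had a log2 fold change of 0.44 ± 0.16 that did not pass (adjusted p = 0.132). It passed among the C1 and C2 libraries (adjusted p = 0.0241), but not by DESeq2 (0.126) or by edgeR with any 1 library left out (0.110 to 0.280). Atg3, the conjugating enzyme gene, Atg16l1, whose product places the ligase on the membrane, and Atg5 had log2 fold changes of 0.07 ± 0.13, 0.11 ± 0.09 and -0.07 ± 0.19. Their adjusted p was 0.769, 0.501 and 0.837. The 3 genes whose products form the ligase, Atg5, Atg12 and Atg16l1, thus gave log2 fold changes of -0.07, 0.72 and 0.11.

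Within the LC3 and GABARAP family 2 of 5 genes passed as higher (all genes 4.32%), 1 of each branch. Gabarapl1 (GABARAP-like 1) was 1.99-fold higher in OB, the largest fold change of the 34 genes. It stood at 129, 124, 94.6 and 106.5 CPM in OB 1 to 4 and at 60.5, 48.9 and 61.6 CPM in control 1 to 3, so that the lowest OB library lay well above the highest control library. Map1lc3b (LC3B), the form most used to mark autophagosomes, stood at 328, 356, 248 and 283 CPM in OB and at 214.5, 173 and 138 CPM in control.

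The log2 fold change of Gabarapl1 was 0.99 ± 0.15 (adjusted p = 0.0110), and its call held whichever library was left out (adjusted p up to 0.0484). Within the C1 and C2 libraries it was 1.21 and in those with no C number 0.69. That of Map1lc3b was 0.79 ± 0.19 (adjusted p = 0.0415), with 0.82 among C1 and C2 libraries and 0.93 among those with no C number, and its call ended without any library other than control 1 (adjusted p up to 0.128). Of the Gabarapl1 exon bases 28.3% overlap other genes, mostly 1700101I11Rik on the opposite strand.

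The other family members had smaller log2 fold changes. Gabarap had 0.35 ± 0.16, Gabarapl2 had 0.21 ± 0.12 and Map1lc3a (LC3A) had 0.06 ± 0.18, with adjusted p = 0.219, 0.342 and 0.876. Map1lc3a stood at 71.5, 67.6, 54.0 and 55.2 CPM in OB and at 68.9, 65.4 and 44.8 CPM in control, and its log2 fold change was below 0 without control 3 (-0.12) or OB 1 (-0.02).

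Measured per length, Gabarap was the main gene of the family in each library. It made up 59.9 ± 1.90% of the family's summed level in OB (SD, n = 4) and 62.2 ± 2.13% in control (SD, n = 3). The share of Gabarapl1 was 13.5 ± 0.870% in OB and 9.29 ± 2.48% in control, and that of Map1lc3b was 9.68 ± 0.602% in OB and 7.41 ± 0.419% in control. For Map1lc3a it was 12.6 ± 0.807% in OB and 16.1 ± 1.02% in control. The log2 ratio of Map1lc3b to Map1lc3a was higher in OB by 0.73 and that of Gabarapl1 to Gabarapl2 by 0.79, both with no overlap between the libraries (exact two-sided permutation p = 0.0571 each, the smallest possible, and 0.0667 after adjustment over the 7 ratios). That of Gabarapl1 to Gabarap was higher by 0.63, but control 3 reached the OB range (exact permutation p = 0.114). The difference was 0.94 among C1 and C2 libraries and 0.08 among those with no C number. All these pairs were picked after the values were seen, so their p-values are no independent test.

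**Figure D2:**
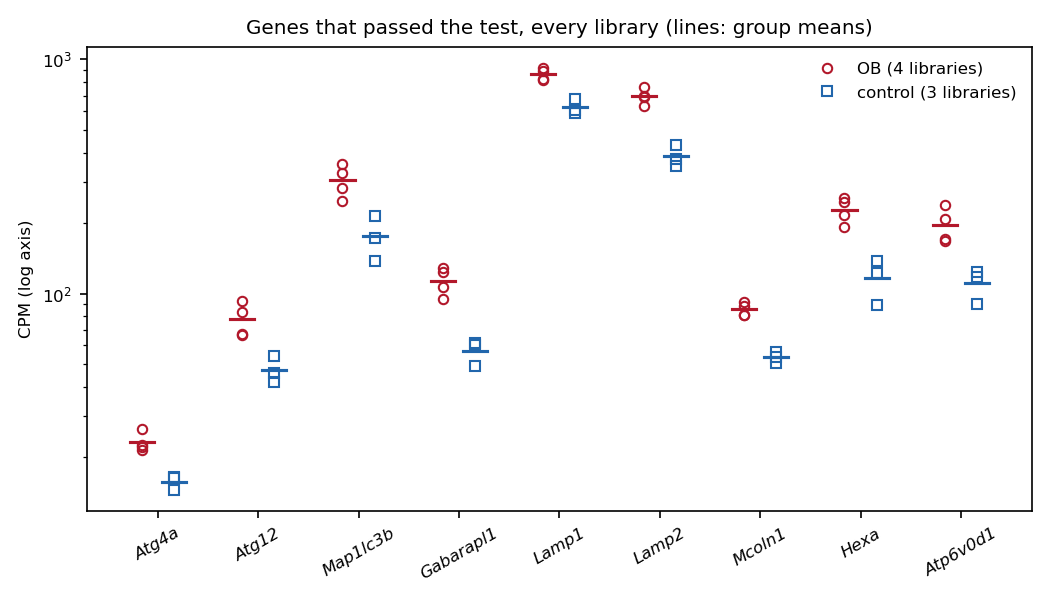
CPM on a log axis of the 9 genes that passed the test, with 1 open circle for each of the 4 OB libraries, 1 open square for each of the 3 control libraries and a line at each group mean. For every gene shown the OB circles lie above the control squares.

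The cargo receptor genes passed in 0 of 5 cases (all genes 4.32% higher and 3.72% lower). Sqstm1 (p62), the receptor for ubiquitin-tagged cargo, stood at 612, 627, 562 and 507 CPM in OB 1 to 4 and at 534, 496 and 595 CPM in control 1 to 3, with the groups mixed. Its log2 fold change was 0.09 ± 0.12 (adjusted p = 0.684). Nbr1, a partner receptor of p62, and Optn (optineurin) had 0.22 ± 0.18 and -0.05 ± 0.19, with adjusted p = 0.472 and 0.886.

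Bnip3 and Bnip3l, which encode receptors on mitochondria and are also known hypoxia targets, had control 3 as their highest library. Bnip3 stood at 35.9, 49.6, 38.6 and 45.4 CPM in OB and at 28.8, 23.5 and 66.4 CPM in control, with the other control libraries the lowest. Bnip3l had the lowest p of this group. Its level was 110.0, 133, 99.4 and 115 CPM in OB and 126.5, 124 and 176 CPM in control, again with control 3 the highest. The log2 fold changes were 0.10 ± 0.34 for Bnip3 and -0.32 ± 0.16 for Bnip3l (adjusted p = 0.881 and 0.262).

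Among the C1 and C2 libraries the log2 fold change of Bnip3 was 0.71 (adjusted p = 0.0795) and that of Bnip3l -0.04 (0.857). In the libraries with no C number, where control 3 is the lone control, they were -0.67 and -0.73. Without control 1 and without control 2 the value of Bnip3 was -0.10 and -0.18, and without control 3 it was 0.69 (adjusted p = 0.0530). The summed level of 14 other hypoxia genes was 1301, 1803, 1190.4 and 1235 CPM in OB 1 to 4 and 1578, 1670.0 and 3939.9 CPM in control 1 to 3, and its part in these values was not tested. Of those 14 genes 0 were higher and 2 lower in OB (all genes 4.32% and 3.72%). The lower ones were P4ha1, a collagen prolyl hydroxylase gene, and Ak4, an adenylate kinase gene, with log2 fold changes of -1.30 ± 0.28 and -3.43 ± 0.76 (adjusted p = 0.0320 and 0.0337), of which Ak4 did not pass under the replicate block (0.0888). The call of Ak4 ended without any 1 OB library, and that of P4ha1 without OB 1, OB 3, OB 4 or control 2. Without control 3 the log2 fold change of Ak4 was -1.84, and DESeq2 gave no adjusted p for Ak4. Of the 50-base words of Bnip3 16.5%, and of those of Bnip3l 20.8%, recur in transcripts of other genes (Gm16439 and Bnip3l-ps the closest).

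**Figure D3:**
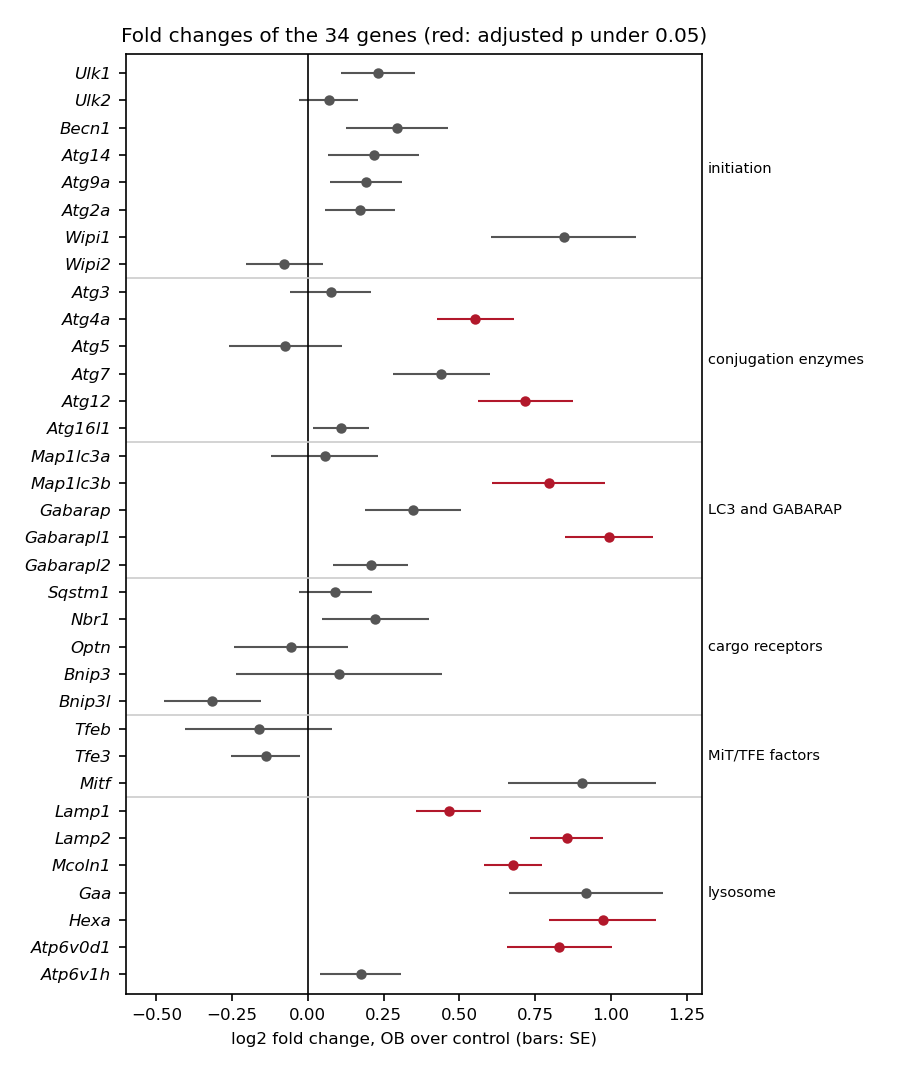
Log2 fold change, OB over control, of each of the 34 genes by role, with bars of 1 SE and red for the 9 with adjusted p under 0.05. The red points lie among the lysosome, LC3 and GABARAP and conjugation genes, and those of Wipi1, Mitf and Gaa lie as far right with wider bars.

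The lysosomal genes formed the group with the highest share of calls, with 5 of 7 higher in OB (all genes 4.32%). Their median log2 fold change was 0.83. Lamp1 and Lamp2 encode the main glycoproteins of the lysosomal membrane. Lamp1 stood at 818, 826, 889.7 and 917 CPM in OB 1 to 4 and at 608, 588 and 679 CPM in control 1 to 3. Lamp2, which is also needed for autophagosomes to fuse with lysosomes, stood at 687, 763, 632 and 699 CPM in OB and at 431, 375 and 349 CPM in control. Mcoln1, the calcium channel of the lysosome, stood at 91.8, 88.1, 81.2 and 80.9 CPM in OB and at 56.4, 53.8 and 50.4 CPM in control. In all of them every OB library lay above every control library.

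Hexa encodes the alpha subunit of beta-hexosaminidase, the enzyme lost in Tay-Sachs disease. It was 1.96-fold higher in OB, at 247, 257, 193 and 217 CPM in OB 1 to 4 and 137, 122.5 and 89.0 CPM in control 1 to 3. Atp6v0d1, a subunit of the membrane part of the V-ATPase, stood at 208, 238.5, 171 and 168 CPM in OB and at 124, 117 and 90.3 CPM in control. Neither overlapped between the groups, and control 3 was the lowest library for both.

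The log2 fold changes were 0.46 ± 0.11 for Lamp1 (adjusted p = 0.0389), 0.85 ± 0.12 for Lamp2 (0.0104), 0.68 ± 0.10 for Mcoln1 (0.0102), 0.97 ± 0.18 for Hexa (0.0196) and 0.83 ± 0.17 for Atp6v0d1 (0.0289). In the same order they were 0.46, 0.85, 0.71, 0.96 and 0.89 within the C1 and C2 libraries and 0.40, 0.92, 0.67, 1.19 and 0.89 within the libraries with no C number. The call of Mcoln1 held whichever library was left out (adjusted p up to 0.0484) and that of Lamp2 ended only without control 2 (0.0507). The calls of Hexa and Atp6v0d1 ended without control 2, OB 1 or OB 2 (up to 0.0659 and 0.0871), and that of Atp6v0d1 also without control 3. That of Lamp1 held only without control 3 among the left-out libraries (up to 0.155 otherwise) and ended under the replicate block (0.0655) and with no filter (0.0714).

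The remaining lysosomal genes were Gaa and Atp6v1h. Gaa, the acid glucosidase gene of glycogen breakdown, stood at 199.8 to 333 CPM in OB and 94.6 to 172.5 CPM in control, with no overlap. Its log2 fold change of 0.92 ± 0.25 did not pass (adjusted p = 0.0652), but it passed under the replicate block (0.00871), by DESeq2 (0.00963), by limma-voom (0.0492) and among the C1 and C2 libraries (0.0104). Gaa did not pass by edgeR with any 1 library left out (0.0679 to 0.154). Atp6v1h, a subunit of the cytosolic part of the V-ATPase, had a log2 fold change of 0.17 ± 0.13 (adjusted p = 0.455), with 0.42 among C1 and C2 libraries (0.0433) and -0.20 among those with no C number. Its groups overlapped through control 3, at 76.3 CPM against 64.5 to 81.6 CPM in OB. The log2 ratio of Atp6v0d1 to Atp6v1h was higher in OB by 0.65 and that of Lamp2 to Lamp1 by 0.39, each without overlap (exact two-sided permutation p = 0.0571, the smallest possible, and 0.0667 after adjustment over the 7 ratios). These pairs were also picked after the values were seen, so their p-values are no independent test.

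Lamp1 was the most abundant of the 34 genes per length, at an FPKM of 323 in OB and 234 in control. After Lamp1 came, in the order of OB, Gabarap at 249 in OB and 195 in control, Sqstm1 at 172 and 161, Hexa at 114 and 58.3, and Atp6v0d1 at 109 and 61.6, the last pair being in the other order in control. The exon length is that of all annotated exons of a gene together, so these levels depend on the annotation. In mm10, Lamp1 (ENSMUSG00000031447) lies on chromosome 8 at 13159161 to 13175338 on the plus strand, and Mcoln1 (ENSMUSG00000004567) on chromosome 8 at 3500457 to 3515232 on the plus strand. Lamp2 (ENSMUSG00000016534) lies on chromosome X at 38401357 to 38456454 on the minus strand, and counts were taken over the exons of each gene.

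TFEB and its relatives bind an E-box, the palindrome CACGTG, within a longer word of lysosomal promoters. RefSeq promoters (GRCm38.p6, 250 bases before to 50 after a start) were at hand for 28 of the 34 genes, 5 of them with several starts, and not for Becn1, Atg12, Atg16l1, Map1lc3a, Bnip3l and Atp6v1h. The 100 bases before the start are shown for Lamp1 and Mcoln1, both higher in OB, because they hold several copies, with CACGTG in capitals.
Lamp1, chr8:13159061-13159160, plus strand: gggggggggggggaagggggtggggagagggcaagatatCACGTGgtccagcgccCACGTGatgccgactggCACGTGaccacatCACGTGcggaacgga
Mcoln1, chr8:3500419-3500518, plus strand: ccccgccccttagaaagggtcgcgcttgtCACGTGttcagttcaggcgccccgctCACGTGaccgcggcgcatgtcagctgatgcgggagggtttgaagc
Lamp1 held 4 copies within its last 61 bases before the start and Mcoln1 held 2. The next lines give 30 bases around the word in Atp6v0d1, also higher in OB, in Gaa, which narrowly missed the threshold, and in Atg3, which did not pass and holds a further copy.
Atp6v0d1, chr8:105566050-105566079, minus strand: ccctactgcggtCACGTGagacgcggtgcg
Gaa, chr11:119267811-119267840, plus strand: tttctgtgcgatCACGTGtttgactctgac
Atg3, chr16:45158746-45158775, plus strand: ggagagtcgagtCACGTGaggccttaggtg

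The word CACGTG was present in 9 of the 28 genes with a promoter (32.1%), against 8.09% of the 27025 genes of the promoter table. It was in 3 of the 8 genes higher in OB that had a promoter and in 6 of the other 20. Of 6 lysosomal genes it was in 4, and of 57 other lysosomal genes with a promoter in 16 (28.1%). The longer words that contain it were rarer. GTCACGTG was in 6 of the 28 (21.4%, against 2.55% of all genes), namely Atg14, Atg3, Atg7, Lamp1, Mcoln1 and Atp6v0d1, and TCACGTGA in 3 of them (10.7%, against 1.12%), namely Atg3, Mcoln1 and Atp6v0d1. All words were searched on both strands, and each longer word overlaps the shorter ones. Gabarapl1, Map1lc3b, Lamp2, Hexa and Atg4a held none of these 3 words in this window.

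The core of the hypoxia response word, ACGTG, which every CACGTG contains, was in 15 of 28 genes (53.6%), against 21.8% of all genes. The forkhead word TGTTTAC was in 0 of 28, against 4.05% of all genes. The palindromic glucocorticoid response element was in 0 of 28, and in 3 of all 27025 genes. These matches describe letters in a short window and were not tested against binding.

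**Figure D4:**
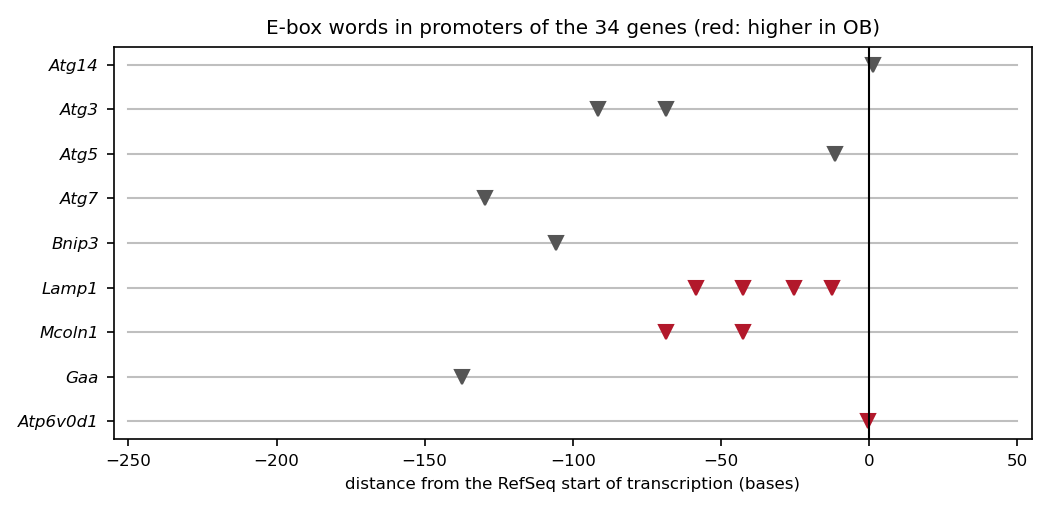
Positions of the E-box word in the RefSeq promoters of the 9 genes that hold it, as distance in bases from the start of transcription, with red for genes higher in OB. Lamp1 carries 4 copies and Mcoln1 2 copies within 71 bases before the start, and genes that did not pass, such as Atg3, carry the word as well.

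Genes of the lysosome that are not among the 34 were examined in 3 lists, in which 21 of 72 tested genes passed as higher (all genes 4.32%). These lists too were chosen with earlier results of these data known. Of 30 hydrolases and their cofactors 10 passed as higher and 0 as lower (all genes 4.32% and 3.72%), with a median log2 fold change of 0.46. Gla (alpha-galactosidase A) stood at 49.0, 44.5, 37.0 and 35.4 CPM in OB 1 to 4 and at 20.2, 20.8 and 20.1 CPM in control 1 to 3. Its log2 fold change was 1.03 ± 0.14 (adjusted p = 0.00936), and the call held without each library in turn. Sumf1, whose product activates sulfatases, had a log2 fold change of 0.54 ± 0.09 (adjusted p = 0.0167), and its call ended without OB 1 or control 2.

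Of 25 membrane proteins and transporters of the lysosome that were tested 7 passed as higher and 0 as lower (all genes 4.32% and 3.72%). Their median log2 fold change was 0.49. Ctns, the cystine exporter gene, stood at 53.1 to 78.4 CPM in OB and 24.1 to 36.3 CPM in control, with a log2 fold change of 1.16 ± 0.19 (adjusted p = 0.0145) whose call ended without OB 1 or control 2. Slc17a5, the sialic acid exporter gene, and Laptm4b followed with 0.68 ± 0.12 and 1.12 ± 0.22 (adjusted p = 0.0172 and 0.0248). The call of Slc17a5 ended without OB 1, OB 4 or control 2, and that of Laptm4b without OB 1, OB 2, control 1 or control 2.

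Of 17 other V-ATPase subunits 4 were higher and 0 lower (all genes 4.32% and 3.72%), with a median of 0.25. Atp6v1e1, Atp6v1f and Atp6v1a, all of the cytosolic part of the pump, had log2 fold changes of 0.51, 0.46 and 0.49 (adjusted p = 0.0261, 0.0304 and 0.0305), and none of these 3 passed under the replicate block (0.0519, 0.0572 and 0.0512). Without 1 library, Atp6v1e1 and Atp6v1a passed only when control 3 was left out, and Atp6v1f only without control 1 or control 3. Over the 3 lists the 21 of 72 (29.2%, all genes 4.32%) depended on the libraries used. Leaving out control 2 left 1 higher (1.39%, all genes 1.2%) and leaving out OB 1 left 2 (2.78%, all genes 1.43%), both near the share of all genes. Leaving out OB 2 or OB 4 left 7 each (9.72%, all genes 2.4% and 2.18%), OB 3 left 8 (11.1%, all genes 2.48%), and control 1 or control 3 left 14 each (19.4%, all genes 3.03% and 3.52%).

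Autophagy genes outside the 34 were examined in the same way. Of 28 genes of the machinery 3 were higher and 0 lower (all genes 4.32% and 3.72%), with a median log2 fold change of 0.18. Depp1, a FOXO target gene that modulates autophagy, stood at 38.8, 54.4, 18.2 and 13.9 CPM in OB 1 to 4 and at 1.68, 3.16 and 1.91 CPM in control 1 to 3. Its log2 fold change of 3.80 ± 0.56 (adjusted p = 0.0110) held without each library in turn, and OB 1 and OB 2 lay well above OB 3 and OB 4. Snap29, of the fusion machinery of autophagosomes, and Vmp1, a lipid scramblase gene of the endoplasmic reticulum, had 0.63 ± 0.10 and 0.69 ± 0.13 (adjusted p = 0.0150 and 0.0200). Both calls ended without OB 1 or control 2, and that of Vmp1 also without OB 2 or control 1. Of 14 other receptor genes 0 passed in either direction (all genes 4.32% higher and 3.72% lower). How the shares of these lists differ from those of the lysosomal lists was not tested.

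Of 32 nutrient sensing genes, which control autophagy through the kinases mTORC1 and AMPK, 3 were higher and 0 lower (all genes 4.32% and 3.72%). Their median log2 fold change was 0.20. Sesn1, a sestrin gene that restrains mTORC1, stood at 134, 131, 117 and 136 CPM in OB 1 to 4 and at 65.9, 59.3 and 37.6 CPM in control 1 to 3. Its log2 fold change was 1.26 ± 0.19 (adjusted p = 0.0120), with the call kept without each library in turn. Fnip1 and Flcn encode partners (folliculin and its binding protein) that act on the RagC and RagD GTPases and through them on TFEB and TFE3, and had 0.58 ± 0.12 and 0.69 ± 0.14 (adjusted p = 0.0265 and 0.0296). Without 1 library, Fnip1 passed only when OB 2 or control 3 was left out, and Flcn only without control 1. Among 9 tested transcription regulators of autophagy 0 were higher and 1 was lower (all genes 4.32% and 3.72%). The lower one was Atf4, with a log2 fold change of -0.72 ± 0.17 (adjusted p = 0.0390, and 0.0557 under the replicate block). With 1 library left out Atf4 passed only without control 1.

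**Figure D5:**
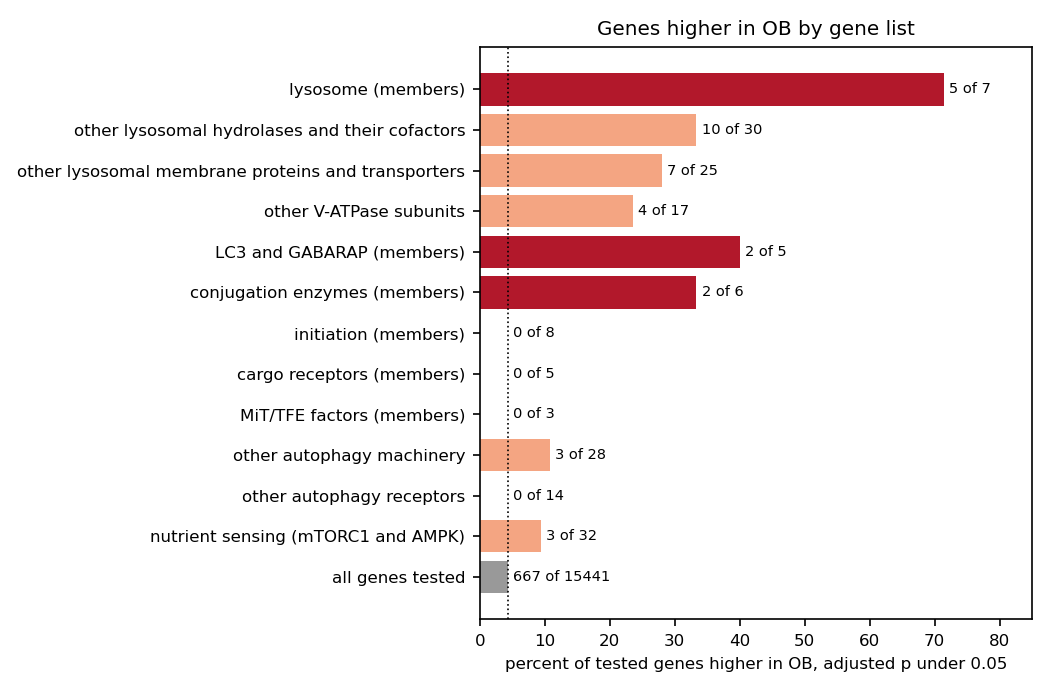
Percent of tested genes that were higher in OB at adjusted p under 0.05 in each gene list, with the 34 genes by role in dark red, other genes of the pathway in light red and all genes tested in grey, and the number of genes beside each bar. The dotted line marks the 4.32% of all genes, and the lists of lysosomal genes reach 23.5% to 71.4%.

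Other features of the cultures moved with the groups. Of 15 cell cycle genes 13 were lower in OB and 0 higher (all genes 3.72% and 4.32%). Their summed level was 599, 652, 660.5 and 741 CPM in OB 1 to 4 and 1095, 2689 and 3244 CPM in control 1 to 3. Kif20a, Ccnb2 and Cdc20, which act in mitosis, had log2 fold changes of -2.09 ± 0.27, -2.08 ± 0.29 and -2.16 ± 0.31 (adjusted p = 0.00755, 0.0103 and 0.0108). Summed over the 7 lysosomal genes of the 34, the level was 2467, 2553, 2237 and 2377 CPM in OB and 1588, 1475 and 1429 CPM in control. Control 3 had the highest cell cycle sum and the lowest lysosomal sum, and the part of proliferation in these differences was not tested. Macrophages and osteoclasts are rich in lysosomes. Of 7 macrophage markers 4 could be tested and 0 passed, their sum was 8.19 to 13.6 CPM in OB and 10.6 to 14.2 CPM in control, Adgre1 was at 0 in every library and Ptprc had 3 counts over each group. Of 6 osteoclast markers 1 could be tested and 0 passed, with a sum of 0.786 to 1.01 CPM in OB and 0.598 to 0.754 CPM in control, and Dcstamp was at 0 in every library. The sum of 5 adipocyte markers was 33.0 to 61.1 CPM in OB and 4.56 to 7.55 CPM in control. Most of it was Fabp4, a fatty acid carrier gene, the only one of the 5 that could be tested and higher in OB, and Adipoq had 110 counts over the OB and 8 over the control libraries. The part of these cells in the results was not tested.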

How the data were processed

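RNA of 4 OB and 3 control cultures was measured. Per the labels' protocols, a TruSeq v2 kit was used on fragmented mRNA. Trimming with Trimmomatic and alignment with HISAT2 to mm10 appear in the submitters' processing notes, their versions being not given in the sources used here. The deposited values, per the file headers, are raw fragment counts per gene over Ensembl 94 exons from featureCounts 1.6.4, without strand, multi-mapping or overlap options. The deposited exon length served for levels per kilobase. The labels write the dexamethasone dose ambiguously, so it is left out. Columns are numbered, and were matched to samples through the input names in the header's counting command, which equal the submitters' descriptions.

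Counts were filtered with filterByExpr, scaled with TMM (factors 0.981 to 1.024) and tested with the quasi-likelihood test of edgeR 4.0.16 in R 4.3.3, checked on simulated data, with Benjamini-Hochberg adjustment over 15441 genes at 0.05. Each SE was taken as the size of the log2 fold change over the square root of the F statistic. Gene symbols were found for 54409 of 54532 features. Alternatives used limma 3.58.1 and DESeq2 1.42.0, other scalings, no filter, blocks, label sets and left-out libraries. Libraries of a group differed beyond sampling noise (chi-square per degree of freedom 13.56 to 148.2).

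Deviations from the group means of same-numbered libraries correlated across genes at 0.167, 0.523 and 0.398, above the 0.1 asked of a pair. The replicate number was therefore also fitted as a block. The main test has no block, and its p-values take the libraries as unpaired. OB 1 correlated more with control 2 (0.209) than with control 1. OB 4, which has no same-numbered partner, correlated with control 3 at 0.27. Differently numbered libraries thus also passed 0.1, and the numbers follow the label sets.

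The 34 genes and the other lists were chosen with earlier results of these data known. Values per library are given for genes past the threshold and, in a role group with none, for the gene of lowest p. They are also given for Map1lc3a, Sqstm1 and Bnip3, which fall outside both cases. Up to 3 genes past the threshold, or else that of lowest p, are named from each other list, and Fkbp5 and Tsc22d3 as a check of the induction. Some genes that this rule names are not reported here. Protein sequences were not used here.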

Additional observations from a re-analysis of the deposited data

Results flagged for a closer look

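The summed level of the 5 osteoblast markers was 66.8 CPM in OB 2, against 80.2 to 81.4 CPM in the other OB libraries and 86.1 to 113 CPM in control. The gap of OB 2 to its neighbour was 0.914 of the range of the OB group, above the 95% critical value of Dixon's test for 4 samples. Of 87 quantities examined in this way it was the only one, and chance alone marks about 1 group in 20.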

How the results depend on the processing

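Over all genes tested 667 were higher and 574 lower in OB. The counts were 1296 and 1136 by DESeq2, 1247 and 1081 by limma-voom, 1433 and 1256 with the label set as a block, 1030 higher among C1 and C2 libraries, and 3052 and 3413 among libraries with no C number. Leaving out 1 library gave 190 to 575 higher and 104 to 703 lower. Of the 34 genes, 14 were higher with the label-set block (all genes 9.28%). Among libraries with no C number 17 were higher (all genes 18.9%) and 2 lower (all genes 21.2%). These last calls restate where control 3, the lone control, lies. With 1 library left out 2 to 7 of the 34 were higher (all genes 1.2% to 3.52%) and 0 lower. With the replicate number as a block 10 of the 34 were higher, and 831 of all genes were higher and 522 lower. The block changed no call of the 34 or of the other named genes beyond those given beside the results. Some small log2 fold changes changed sign. By limma-voom Atg3 had -0.010, Atg5 0.14 and Map1lc3a -0.12. Among C1 and C2 libraries Wipi2 had 0.015 and Optn 0.049, and with the label-set block Optn had 0.014. Among libraries with no C number Atg3 had -0.083, Atg16l1 -0.026, Sqstm1 -0.17, Bnip3 -0.67, Tfeb 0.32 and Atp6v1h -0.20. With 1 library left out, the log2 fold change ran from -0.0014 to 0.15 for Atg3, from -0.19 to 0.14 for Atg5, from -0.12 to 0.16 for Map1lc3a, from -0.18 to 0.075 for Optn, from -0.18 to 0.69 for Bnip3 and from -0.41 to 0.028 for Tfeb. The cause of these changes was not tested. Of 544 values of the 34 genes under alternatives, 455 kept direction and side of the threshold, 38 lost the call, 29 gained one and 22 changed sign. These values include the fit with control 3 as the lone control. The 3 lists of other lysosomal genes held 21 higher (29.2%, all genes 4.32%), against 34 by limma-voom (47.2%, all genes 8.08%) and 39 with the label-set block (54.2%, all genes 9.28%). By DESeq2 they held 32 (42.7%, all genes 4.35%) and with no filter 12 (16%, all genes 2.43%). In these last fits the share of all genes is over 29763 genes with any count, against 15441 genes in the others. It is therefore not comparable with the shares of the other fits. No scaling moved the median of all genes by 0.1 on the log2 scale. With no filter Atp6v1f and Atp6v1a did not pass (adjusted p = 0.0697 and 0.0586 by edgeR), nor did P4ha1, Atf4, Atp6v1f and Cdc20 among C1 and C2 libraries (0.0935, 0.101, 0.0634 and 0.0530). Mitf, the lowest of the 34 genes, had 1016 counts over the OB and 519 over the control libraries, while several markers of other cells had under 10 counts in a group.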
